A study of Rattus norvegicus with 24 samples.

Results

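Keratins are the intermediate filament proteins of epithelial cells, and the members described here are the simple epithelial keratins Krt8, Krt18, Krt19 and Krt7 and the basal keratins Krt5, Krt14, Krt15 and Krt17. They were chosen by symbol, by matching the accession of each array probe to a gene table of the rat assembly GRCr8, and hair keratins were excluded. Of the 8945 gene symbols found on the array in this way, 7 belonged to these 8 keratins, with 8 probes in all. Krt18 had 2 probes and the other keratins had 1 each. No probe was matched to Krt7, which is not analysed here.

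Filaments are built from pairs of a type I and a type II keratin. Krt8 (type II) pairs with Krt18 or Krt19 (both type I) in luminal cells of glands and in other simple epithelia. Krt5 (type II) pairs with Krt14 or Krt15 (both type I) in the basal layer of stratified epithelia and in basal cells of the prostate. Krt17 (type I) is known from hair follicles, basal cells of glands and wounded epidermis. In the prostate, luminal cells carry the secretory function that androgen maintains, and castration leads to their loss while basal cells persist.

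RNA was measured on 24 one-colour Agilent arrays from Sprague-Dawley rats of 12 weeks. Prostate, skin and forebrain came from males that were castrated and, 3 days later, injected once into the peritoneum with dihydrotestosterone (DHT, a potent androgen that aromatase cannot turn into estrogen) at 10 mg/kg, or with vehicle. Ovary came from intact females given DHT or vehicle in the same way, according to the sample labels, although the design text speaks of castrated males for all tissues. Tissue was taken after 16 h, and each of the 8 groups (DHT and vehicle in prostate, skin, ovary and forebrain) had 3 arrays. The vehicle males were castrated too, so each comparison in males is of DHT replacement against castration, and no intact male is among the groups. The design text calls the samples of a group biological replicates, and the labels do not say whether tissues of one number came from one animal. The prostate lobe and the skin site are not given in the labels.

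One forebrain vehicle array (replicate 3) failed the quality control of the submitters and was left out, which left 23 arrays. Between 54.6% and 97.0% of the probes of an array were well above background. The arrays lay on 6 slides of 4, with 1 array of each tissue on a slide, and DHT and vehicle on different slides, so within a tissue slide and treatment cannot be told apart. Ovary vehicle arrays 1 and 3 had a narrow range of signals (interquartile range 3.79 and 3.21 log2 units, against 6.15 on vehicle array 2). The prostate arrays were not uniform either. Vehicle array 3 had the narrowest range of that tissue (5.23, with 6.80 and 6.71 on vehicle arrays 1 and 2). It also had the most spots marked as outliers in prostate, 1531, and vehicle array 1 came next with 273. Prostate DHT array 1 was the dimmest of its tissue, with a 75th percentile signal of 486. The next lowest was 1154, on DHT array 3. In skin, the mean level of the skeletal muscle list was 8.23 to 10.94 on the 3 DHT arrays, against -1.51 on vehicle array 1 and 9.43 and 9.48 on the other vehicle arrays. Levels are log2 signals relative to the 75th percentile of their array, and a level of 0 equals that percentile. Levels of different probes are not set against each other, and every comparison below is of 1 probe across arrays.

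Krt8 and Krt18 are partner genes and close neighbours on chromosome 7, and Krt5 is the type II partner of the basal pair. The upstream sequences of these 3 are shown because no others were matched. Each is the 250 bases before the gene's annotated start in RefSeq (GRCr8), read 5′ to 3′ on the strand of the gene, at chr7:135010340-135010589 (minus strand) for Krt8, chr7:135035918-135036167 (plus strand) for Krt18 and chr7:134730570-134730819 (minus strand) for Krt5. Capitals mark matches to a TATA box (TATAAA) or a GC box (GGGCGG), on either strand.
Krt8: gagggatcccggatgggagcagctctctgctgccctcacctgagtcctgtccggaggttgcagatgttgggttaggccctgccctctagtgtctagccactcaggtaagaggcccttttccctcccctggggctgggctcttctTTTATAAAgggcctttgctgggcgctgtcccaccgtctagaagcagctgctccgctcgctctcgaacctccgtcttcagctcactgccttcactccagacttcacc
Krt18: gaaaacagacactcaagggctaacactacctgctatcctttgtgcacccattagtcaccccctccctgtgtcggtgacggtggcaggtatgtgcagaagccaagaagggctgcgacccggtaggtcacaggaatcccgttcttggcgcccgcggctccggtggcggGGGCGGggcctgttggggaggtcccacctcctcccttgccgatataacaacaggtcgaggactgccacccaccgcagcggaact
Krt5: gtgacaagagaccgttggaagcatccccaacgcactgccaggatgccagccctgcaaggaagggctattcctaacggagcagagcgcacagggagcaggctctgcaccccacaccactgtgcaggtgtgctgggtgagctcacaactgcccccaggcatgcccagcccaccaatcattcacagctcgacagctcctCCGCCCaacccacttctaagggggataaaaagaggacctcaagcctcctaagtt
The capitals in Krt8 are 2 overlapping TATA box matches, 1 on each strand, and those in Krt18 and Krt5 are 1 GC box each. A TATA box match was present in 12.9% and a GC box match in 30.5% of 33469 rat upstream sequences of the same length. The AP-1 site (TGANTCA, found in 6.34% of them) and a core element bound by the androgen receptor (AGAACA, found in 17.5%) had no match in the 250 bases of these 3 genes, which says only that these letters are absent from this window. Upstream sequences were matched for 3 of the 8 keratins.

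In the genome the keratins lie in 2 clusters, type II genes with Krt18 on chromosome 7 and the other type I genes on chromosome 10. Krt8 and Krt18 have 1 gene between them in GRCr8, Krt15 and Krt19 have none, and Krt14 and Krt17 have 2. Neighbours therefore include pairs of different class, such as Krt15 (basal) and Krt19 (simple).

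The simple keratins were highest in prostate and the basal keratins in skin. All 3 simple keratins had the order prostate, ovary and then skin and forebrain, and all 4 basal keratins had the order skin, prostate and then ovary and forebrain. In limma's fit over all tissues, with slide as a random block, 39 of the 42 differences of a keratin between 2 tissues passed an adjusted p of 0.05. Across all genes, 59.7% passed between prostate and skin, 43.7% between prostate and ovary, 57.4% between prostate and forebrain, 55.7% between skin and ovary, 65.3% between skin and forebrain and 55.4% between ovary and forebrain. Shares of all genes, here and below, count each probe without a matched symbol as a gene of its own. A tissue difference by itself was therefore common on these arrays. The count was between 33 and 39 in the alternatives tried.

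Krt8 had a mean level of 4.85 in prostate (4.05 to 5.58 over 6 arrays), 0.84 in ovary (-0.23 to 2.29, 6 arrays), -3.01 in skin (-4.65 to -1.30, 6 arrays) and -3.70 in forebrain (-4.95 to -2.45, 5 arrays). Prostate exceeded ovary by 4.01 ± 0.52 log2 units (SE), a 16.1-fold difference, and no prostate array overlapped an ovary array. Ovary exceeded skin by 3.85 ± 0.52. Skin and forebrain overlapped and did not differ beyond their error (0.68 ± 0.55, adjusted p = 0.290).

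Krt18, the partner of Krt8, had mean levels of 7.98 in prostate (7.19 to 8.52, 5 arrays), 4.77 in ovary (3.78 to 5.94, 6 arrays), 0.38 in forebrain (-1.62 to 3.06, 5 arrays) and -0.74 in skin (-2.47 to 0.68, 6 arrays), all on its brighter probe. Prostate lay 9.34-fold above ovary (3.22 ± 0.40 log2 units) and ovary 20.8-fold above forebrain (4.38 ± 0.40). Forebrain and skin overlapped, and their difference of 1.14 ± 0.40 (adjusted p = 0.0186) was called in 7 of 12 alternatives. The other Krt18 probe gave the same order, with mean levels of 7.08 in prostate, 3.15 in ovary, -1.39 in forebrain and -3.05 in skin.

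Krt19, the smallest keratin, which lacks most of the usual tail domain, had mean levels of 5.08 in prostate (4.13 to 6.05, 6 arrays), 2.97 in ovary (2.30 to 3.79, 6 arrays), -2.41 in skin (-3.66 to -1.53, 6 arrays) and -4.39 in forebrain (-6.50 to -0.90, 5 arrays). Prostate exceeded ovary by 2.11 ± 0.58 (adjusted p = 0.00654, called in 9 of 12 alternatives). Ovary lay 41.5-fold above skin, and skin exceeded forebrain by 1.97 ± 0.62 (adjusted p = 0.00994) although forebrain vehicle array 2 lay above every skin array. Before scaling, Krt19 signals overlapped between skin (4.39 to 129) and forebrain (12.0 to 277). The 75th percentile that was subtracted was 55.6 to 379 on the skin arrays and 516 to 1382 on these forebrain arrays. Krt19 was well above background on 5 of 6 skin and 4 of 5 forebrain arrays. The part of the scaling in this difference was not tested.

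Krt5 was higher in skin, at a mean level of 5.94 (5.63 to 6.36, 6 arrays), than in prostate, at 2.42 (2.31 to 2.56, 6 arrays). The difference of 3.51 ± 0.30 log2 units was 11.4-fold. Forebrain (-3.80 to -3.13, 5 arrays) and ovary (-4.64 to -1.78, 6 arrays) both had a mean level of -3.48 and did not differ beyond their error (0.02 ± 0.32, adjusted p = 0.971). Krt5 was well above background on every one of these arrays. On ovary vehicle arrays 1 and 3, which held its highest ovary levels, 96.5% and 97.0% of all probes were, so this says little there.

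Krt14, the type I partner of Krt5 in basal cells, had mean levels of 7.54 in skin (6.67 to 8.25, 6 arrays), 3.52 in prostate (2.49 to 4.26, 6 arrays), -1.98 in ovary (-3.11 to -0.89, 6 arrays) and -2.93 in forebrain (-3.50 to -1.52, 5 arrays). Skin lay 16.3-fold above prostate and prostate 45.2-fold above ovary. Ovary and forebrain overlapped, and their difference of 0.94 ± 0.39 (adjusted p = 0.0474) was called in 5 of 12 alternatives.

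Krt15, a keratin of basal cells and of hair follicle stem cells, had mean levels of 8.18 in skin (7.52 to 9.22, 6 arrays), 5.68 in prostate (5.49 to 5.94, 6 arrays), -0.999 in ovary (-3.15 to 0.73, 6 arrays) and -3.36 in forebrain (-4.79 to -1.24, 5 arrays). Skin lay 5.66-fold and prostate 102-fold above the next tissue in this order. Ovary exceeded forebrain by 2.35 ± 0.50 (adjusted p = 0.000546), with overlapping arrays.

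Krt17 had mean levels of 2.97 in skin (1.72 to 3.89, 6 arrays) and -3.50 in prostate (-5.10 to -1.86, 6 arrays), an 88.5-fold difference. It was well above background on 2 of 6 ovary arrays, which are the vehicle arrays of narrow range, and on 1 of 5 forebrain arrays. The order of ovary (mean -5.52) and forebrain (-5.95) is therefore not settled, and their difference of 0.41 ± 0.69 did not pass (adjusted p = 0.633). The plot of levels by array shows the 2 orders side by side.

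**Figure D1:**
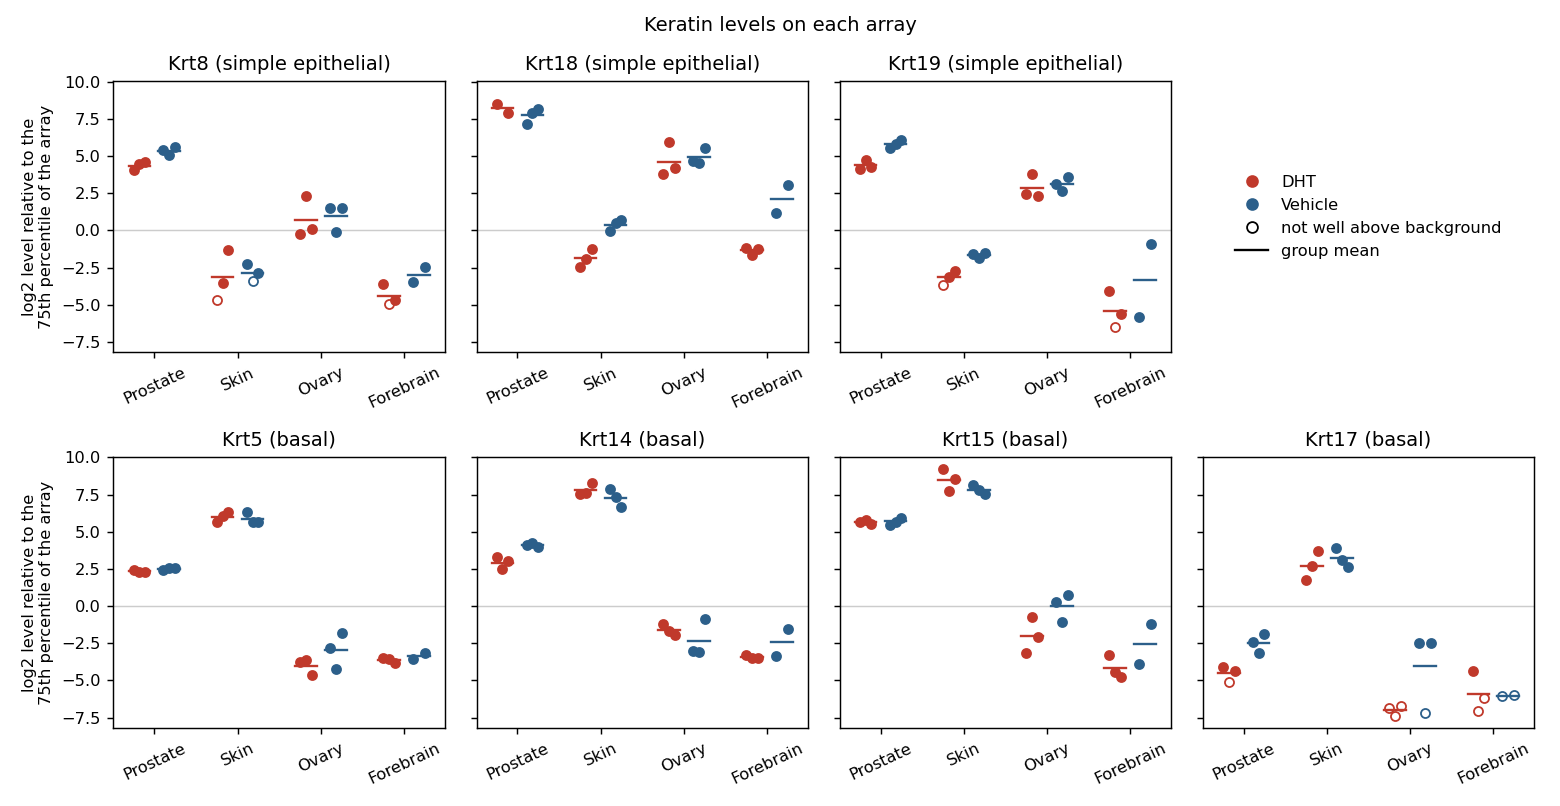
Levels of the 7 keratins on each of the 23 arrays, as log2 signal relative to the 75th percentile of the array (vertical axis), by tissue (horizontal axis), with DHT (red) left of vehicle (blue). Lines are group means and open circles are not well above background; the 3 simple keratins (upper row) are highest in prostate and the 4 basal keratins (lower row) in skin.

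Likeness between genes was described as the root mean square difference over the arrays after each gene was centred on its own mean, so that 0 would be an identical pattern. The 3 pairs of simple keratins had values of 1.20 to 1.44 log2 units and the 6 pairs of basal keratins 0.79 to 2.71. The 12 pairs of a simple with a basal keratin had 5.21 to 6.27. All of these rest mainly on the 4 tissues, which the arrays share.

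Krt5 and Krt14 were the closest pair (0.79), and each was the nearest gene to the other among the 7681 named genes compared. Next to both came Krt33a (1.21 to Krt5 and 1.35 to Krt14), a hair keratin gene, and then Krt15 (1.38 and 1.36). The genes nearest to Krt15 were Tp63 (0.83), which encodes the basal cell transcription factor p63, Serpinb5 (0.90), which encodes maspin, and Krt14 (1.36). Krt18 had Krt8 as its nearest gene (1.20 over 22 arrays), followed by Slc44a4 (1.36), a choline transporter family gene, and Fmo5 (1.43), a flavin-containing monooxygenase gene.

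Krt8 itself had Fmo5 (0.91), Slc44a4 (1.03) and Isg20 (1.19), an interferon-stimulated exonuclease gene, as its nearest genes. Krt19 had Krt8 (1.32), Rbm47 (1.33), an RNA-binding protein gene, and Mmp12 (1.34), which encodes macrophage elastase. Those nearest to Krt17 were Mup5 (1.08), Mup4l1 (1.097) and Mup4l4 (1.17), of a family of near-identical major urinary protein genes that array probes may not separate.

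In prostate, 4 of the 7 keratins were called lower with DHT than with vehicle, 2 simple (Krt8 and Krt19) and 2 basal (Krt14 and Krt17). Treatment and slide cannot be told apart here. The other 3, which are Krt18, Krt5 and Krt15, did not pass the test. Across all genes of the prostate fit, 4.58% were called lower and 9.69% were called in either direction. The median log2 fold change was -0.99 over the 3 simple and -0.67 over the 4 basal keratins, beside 0.06 over all 25277 genes, unnamed probes included.

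The level of Krt8 on the 3 arrays of each group was 4.05, 4.45 and 4.57 with DHT, against 5.38, 5.06 and 5.58 with vehicle. Every DHT array lay below every vehicle array. Krt8 fell by 0.99 ± 0.21 on the log2 scale (SE, limma adjusted p = 0.0380), and its level was 1.98-fold lower with DHT. Its partner Krt18 had levels of 8.52 and 7.92 on the 2 usable DHT arrays (the spot on DHT array 2 was an outlier and was left out), against 7.19, 7.87 and 8.17 with vehicle. The groups overlapped, with a log2 fold change of 0.48 ± 0.36 (adjusted p = 0.443). The other Krt18 probe, measured on all 6 arrays, had 7.22, 6.94 and 6.84 with DHT and 6.78, 7.11 and 7.62 with vehicle, a difference of -0.17. The 2 probes thus had opposite signs, both small, and Krt18 has no settled direction in prostate. The difference between the responses of Krt8 and Krt18 was not tested.

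Krt19 had levels of 4.13, 4.72 and 4.29 with DHT, against 5.52, 5.80 and 6.05 with vehicle. It fell by 1.41 ± 0.22 (adjusted p = 0.0162), which is 2.66-fold, with no overlap. It is the simple keratin with the greater change in prostate, and it was called in 9 of 14 alternatives, the most of the 4 keratins.

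Among the basal keratins, Krt14 had levels of 3.30, 2.49 and 3.00 with DHT and 4.08, 4.26 and 3.99 with vehicle. It fell by 1.18 ± 0.23 (adjusted p = 0.0298), or 2.27-fold, with all DHT arrays below all vehicle arrays. Krt5, with which Krt14 forms filaments, had 2.40, 2.32 and 2.31 with DHT and 2.40, 2.56 and 2.55 with vehicle. These levels lay within a narrow band, and the log2 fold change of -0.16 ± 0.14 did not pass (adjusted p = 0.504).

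Krt15 had levels of 5.67, 5.77 and 5.50 with DHT, against 5.49, 5.69 and 5.94 with vehicle, and a log2 fold change of -0.06 ± 0.18 (adjusted p = 0.861). The DHT arrays lay within the range of the vehicle arrays. Krt17 had -4.10, -5.10 and -4.34 with DHT, against -2.43, -3.16 and -1.86 with vehicle. It fell by 2.03 ± 0.40 (adjusted p = 0.0293), 4.09-fold, and was not well above background on DHT array 2. All 4 keratins that were called had groups without overlap. With 3 arrays per group a call makes that likely, so it adds no support. Across all genes, called or not, 16.4% had DHT arrays below vehicle arrays without overlap.

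**Figure D2:**
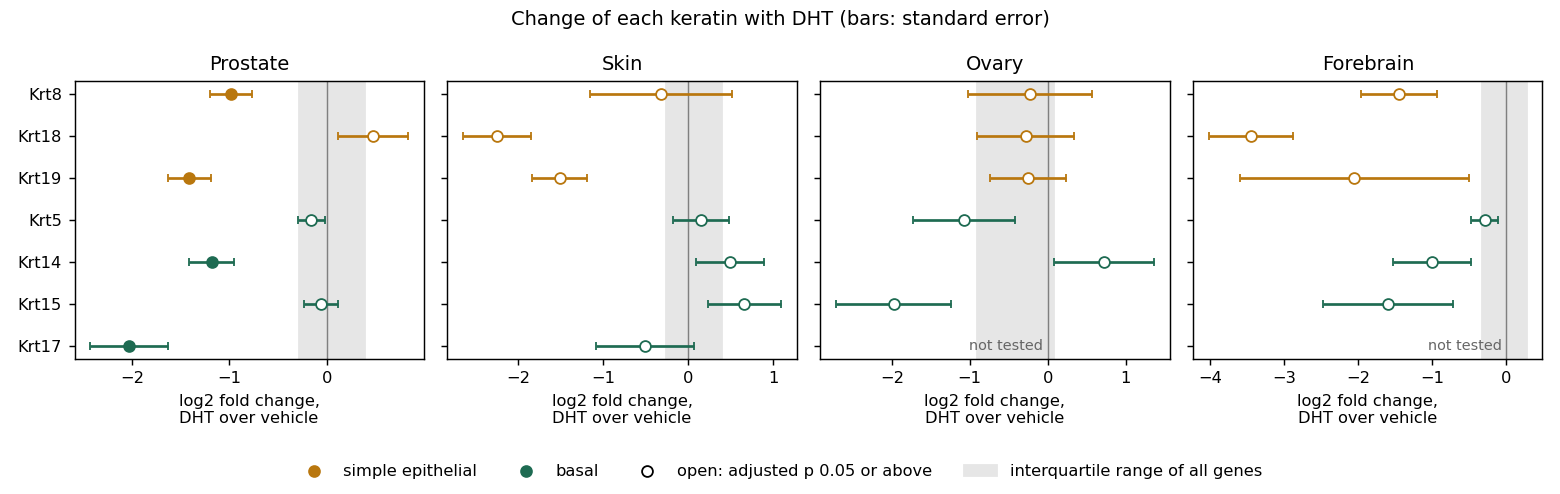
Log2 fold change of each keratin with DHT over vehicle (horizontal axis) in prostate, skin, ovary and forebrain, with the standard error as bars; filled points passed an adjusted p of 0.05 and the grey band is the interquartile range of all genes tested. Filled points occur in prostate alone, for Krt8, Krt19, Krt14 and Krt17, and the horizontal scale differs between tissues.

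These calls depend on the arrays and on the processing. The 4 keratins kept their direction in all 14 alternatives tried for prostate, with Krt8 between -1.15 and -0.78, Krt19 between -1.58 and -1.28, Krt14 between -1.37 and -0.96 and Krt17 between -2.37 and -1.19. The number called was 0 with normexp background correction, 0 without a filter on dim probes and 0 with replicate number as a block. It was 1 without vehicle array 1, 1 without vehicle array 2, 2 without DHT array 1, 1 without DHT array 2 and 0 without DHT array 3. The plot of the alternatives gives each value.

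**Figure D3:**
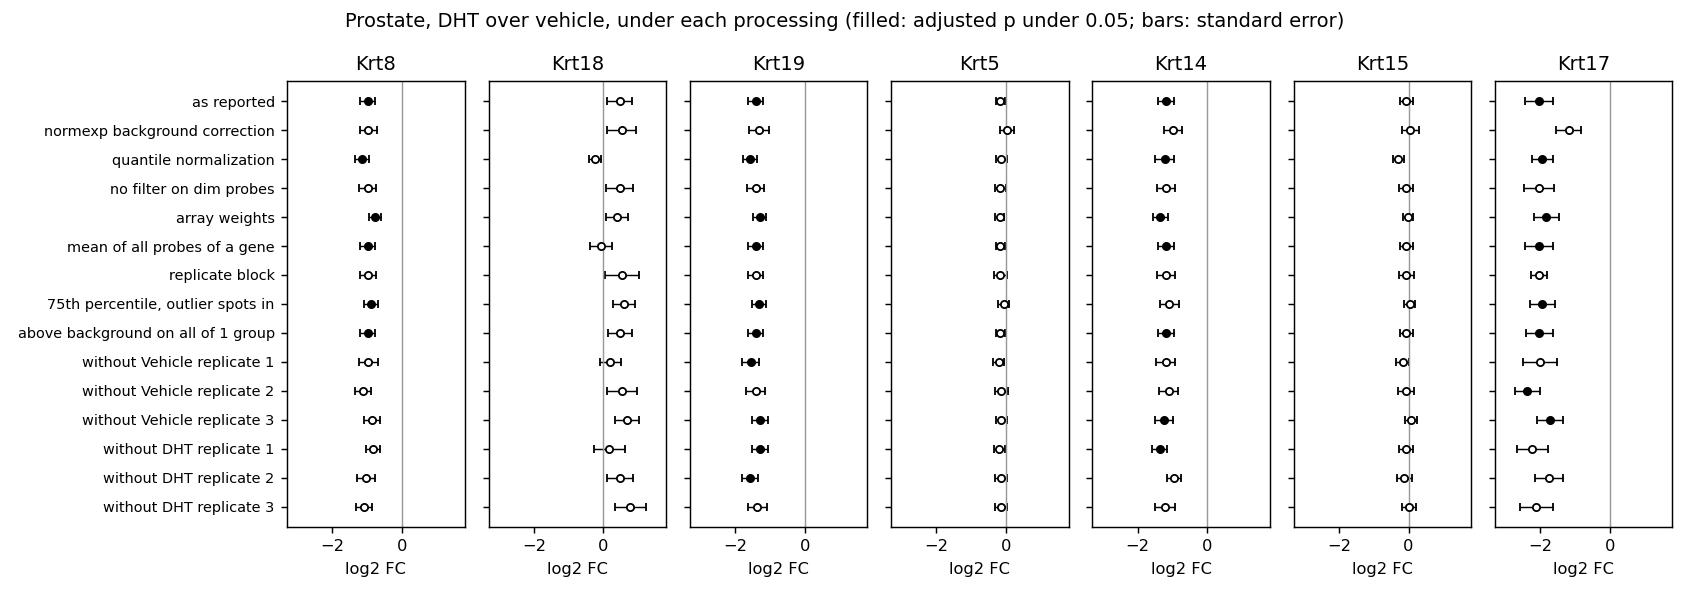
Log2 fold change (log2 FC, horizontal axis) of each keratin in prostate, DHT over vehicle, as reported (top row) and under each of the 14 alternatives; bars are standard errors and filled points passed an adjusted p of 0.05. Points of Krt8, Krt19, Krt14 and Krt17 stay left of 0 in every row, whereas those of Krt18, Krt5 and Krt15 fall on both sides.

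Some genes that anchor keratin filaments or join epithelial cells were called lower in prostate too. Of the 3 desmosome and plakin genes on the array, 2 were called lower and none higher, beside 4.58% of all genes called lower. Jup, which encodes plakoglobin, had levels of 3.43, 3.66 and 3.36 with DHT and 4.35, 4.18 and 4.44 with vehicle, and fell by 0.84 ± 0.16 (adjusted p = 0.0270). Dsc2, which encodes the desmosomal cadherin desmocollin 2, fell by 1.03 ± 0.19 (adjusted p = 0.0250). Plec, which encodes the linker plectin, had a log2 fold change of -0.49 ± 0.15 (adjusted p = 0.0911).

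Of 12 genes of epithelial adhesion and its proteases, 4 were called lower and none higher, again beside 4.58% of all genes called lower, and the median log2 fold change was -0.56. Cldn3, a tight junction claudin gene, had 4.73, 5.15 and 5.11 with DHT against 6.51, 6.57 and 6.71 with vehicle, and fell by 1.60 ± 0.17 (adjusted p = 0.00616). Ocln, which encodes occludin, fell by 1.51 ± 0.16. St14, which encodes the membrane protease matriptase, fell by 1.11 ± 0.23, and Spint1, which encodes its inhibitor, by 1.07 ± 0.22. Other members did not pass, among them Cdh1 (E-cadherin, -0.60 ± 0.15, adjusted p = 0.0552) and Epcam (-0.51 ± 0.17, adjusted p = 0.115).

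Neither of the 2 hemidesmosome genes was called: Itgb4, which encodes the integrin of hemidesmosomes, had -0.45 ± 0.17 (adjusted p = 0.150). None of 8 epithelial transcription factor genes was called, with a median of -0.32. Of these, 7 had negative fold changes and 1 a positive one, with every DHT array above every vehicle array. The mean level of the list was 0.03 with DHT and -0.001 with vehicle. Tp63, whose pattern over tissues was nearest to Krt15, had -0.27 ± 0.22 (adjusted p = 0.469).

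**Figure D4:**
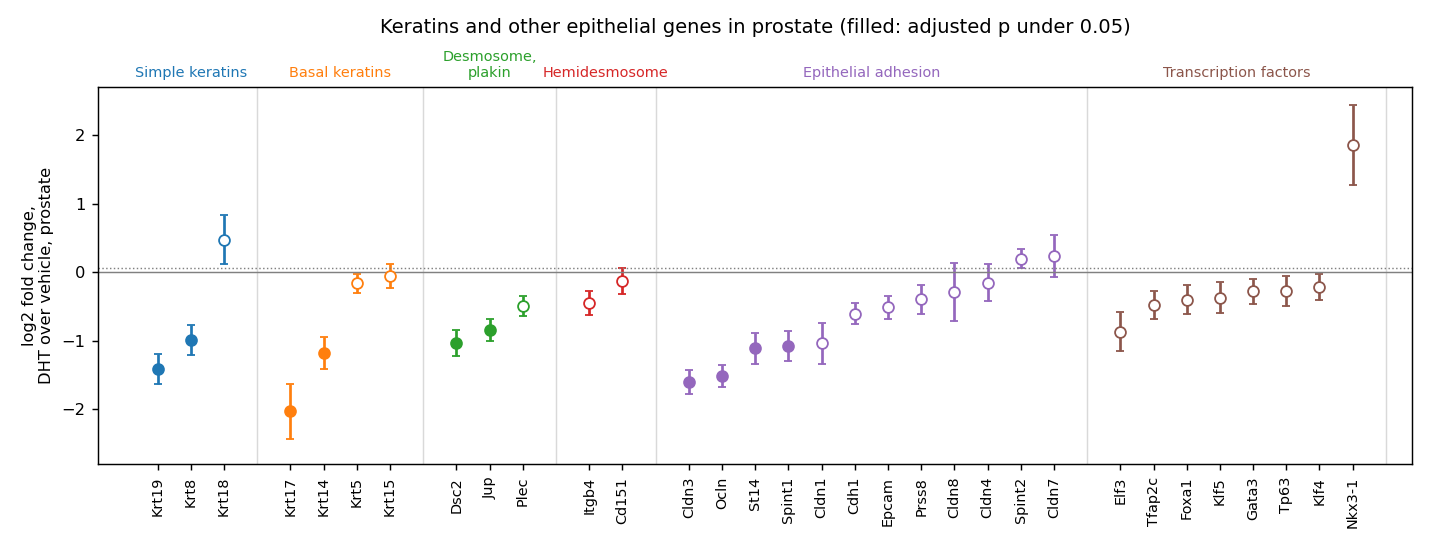
Log2 fold change in prostate, DHT over vehicle (vertical axis), of the keratins and of other epithelial genes (horizontal axis), ordered within each group; bars are standard errors, filled points passed an adjusted p of 0.05 and the dotted line is the median of all genes. The filled points are 4 keratins, 2 desmosome genes and 4 adhesion genes, and all of them lie below 0.

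Among other lists in prostate, 1 of 2 hair follicle genes tested, 1 of 4 keratinocyte genes and 0 of 2 suprabasal keratin genes were called lower. None of them was called higher, and 4.58% of all genes were called lower. Krt75, a hair follicle keratin gene, was at least 2.48-fold lower, since it was not well above background on any DHT array. It met the filter only through the 3 vehicle arrays, so its call was nearly fixed in advance and is not read as a result. Tgm1, which encodes the transglutaminase of cornified cells, fell by 2.38 ± 0.25 (adjusted p = 0.00610) and was the 1 keratinocyte gene called of 4 tested. Krt13, a keratin of suprabasal layers, had a log2 fold change of 1.40 ± 0.43 (adjusted p = 0.0914).

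Markers of other cell types were measured beside the keratins. Of 8 genes of luminal secretion, 4 had positive and 4 negative fold changes, with a median of 0.18. Of these 8, 2 were called higher and 1 lower, beside 5.11% and 4.58% of all genes. Pbsn (the androgen-dependent protein probasin) rose by 5.85 ± 0.31 and Klk1c9 (a glandular kallikrein) by 1.42 ± 0.31. Rnase1 (a secreted ribonuclease) fell by 2.74 ± 0.27 and was well above background on 1 of 3 DHT arrays. Of 6 adipocyte genes, 5 were called higher, beside 5.11% of all genes, with a median of 1.29, and the mean level of that list was 0.81 to 1.31 with DHT and -0.12 to 0.35 with vehicle. No gene of the smooth muscle (5), fibroblast (4) or endothelial (5) lists was called, with medians of 0.35, 0.56 and 0.47. All 13 cell cycle genes had negative fold changes (44.9% of all genes did), with a median of -1.07, and none was called. In 9 of the 13, DHT arrays lay below vehicle arrays without overlap (16.4% of all genes). In bulk tissue fewer cells of a type and less RNA per cell cannot be told apart, and the part of these markers in the keratin values was not tested.

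In skin, no keratin passed limma's test (2 of 7, Krt18 and Krt19, had an unadjusted p under 0.05), as for the whole array, where 0.00% of 25731 genes were called (1274, or 4.95%, had an unadjusted p under 0.05). The simple keratins, which were low in skin, had negative fold changes, and 3 of the 4 basal keratins had positive ones. Krt18 had levels of -2.47, -1.91 and -1.23 with DHT, against -0.05, 0.50 and 0.68 with vehicle. The groups did not overlap, and the log2 fold change was -2.25 ± 0.40 (unadjusted p = 0.000854, adjusted p = 0.755). The other Krt18 probe gave -1.92 and was not well above background on DHT array 1. Krt19 had -3.66, -3.13 and -2.70 with DHT and -1.56, -1.87 and -1.53 with vehicle, again with no overlap (-1.51 ± 0.32, adjusted p = 0.755). On DHT array 1 it was not well above background. Groups without overlap and DHT below were found for 6.15% of all genes. Krt8 had levels of -4.65, -3.55 and -1.30 with DHT and -2.26, -3.40 and -2.89 with vehicle, which overlapped (-0.32 ± 0.83, adjusted p = 0.924). It was not well above background on DHT array 1 and vehicle array 2. The skin arrays were dim, with a 75th percentile signal from 55.6 (DHT array 1) to 379 (vehicle array 1), against 486 to 2384 in the other tissues. These low levels are therefore near the floor.

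The basal keratins of skin were high and overlapped between the groups. Krt5 had levels of 5.64, 6.04 and 6.36 with DHT against 6.31, 5.63 and 5.65 with vehicle (0.15 ± 0.33). Krt14 had a log2 fold change of 0.49 ± 0.40, Krt15 of 0.66 ± 0.43 and Krt17 of -0.51 ± 0.57, with adjusted p between 0.755 and 0.909 for the 4. Skin DHT array 1 stood apart in the hair follicle list (mean level -3.00, against 1.48 and 2.20 on the other DHT arrays and 1.76 to 3.03 with vehicle). The cell cycle list had means of -1.73 to 0.31 with DHT and 0.71 to 1.24 with vehicle. Without DHT array 1, Krt18 had -1.95 and Krt19 -1.26 in skin, and Krt8 turned to 0.42. Without vehicle array 1, where the muscle list was low, Krt18 had -2.46 and Krt19 -1.46.

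The effects in prostate and skin were compared directly, as the prostate effect minus the skin effect. None of the 7 keratins passed (1.51% of all genes did). Krt18 had the greatest difference of the 7, 2.75 ± 0.79 (adjusted p = 0.104), from 0.48 in prostate and -2.25 in skin. Krt14 had -1.67 ± 0.72 (adjusted p = 0.317), from -1.18 in prostate and 0.49 in skin. Krt19, lower with DHT in both tissues, had 0.10 ± 1.17 (adjusted p = 0.985). A fall called in prostate and not in skin is therefore not shown to differ between these tissues for any of the 7.

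In ovary, none of the 6 keratins tested was called by limma, and 0.00% of 31271 genes were. An unadjusted p under 0.05 was found for 1 of the 6 (Krt15) and for 10.6% of all genes. The 3 simple keratins had log2 fold changes of -0.28 to -0.23. The median over all 31271 genes was -0.23, and 66.8% of them had negative fold changes. Krt18 had levels of 3.78, 5.94 and 4.19 with DHT, against 4.67, 4.53 and 5.54 with vehicle, and the groups overlapped for all 6. Krt15 had -3.15, -0.73 and -2.08 with DHT, against 0.29, -1.06 and 0.73 with vehicle (-1.97 ± 0.74, adjusted p = 0.470). Krt5 had -1.07 ± 0.66 and Krt14 0.72 ± 0.64. The vehicle arrays of narrow range, 1 and 3, held the high vehicle values of Krt15 and Krt5. Without both of them, Krt15 had a log2 fold change of -0.92 and Krt5 one of 0.21.

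In forebrain, where keratins were low, no keratin was called by limma either (2 of 6, Krt18 and Krt8, had an unadjusted p under 0.05; 0.00% of 28083 genes were called, and 27.6% had an unadjusted p under 0.05). All 6 keratins tested had negative fold changes, from -3.44 for Krt18 to -0.29 for Krt5. Krt18 had levels of -1.18, -1.62 and -1.23 with DHT, against 1.14 and 3.06 on the 2 vehicle arrays. The log2 fold change was -3.44 ± 0.57 (adjusted p = 0.0709), and the second probe gave -2.83. It passed with normexp background correction (adjusted p = 0.0462) and without vehicle array 1 (0.0371), and not in the other 12 alternatives. Krt8 had -3.60, -4.95 and -4.72 with DHT, against -3.49 and -2.45 with vehicle (-1.45 ± 0.51, adjusted p = 0.151). The Krt19 groups overlapped, with -4.09, -6.50 and -5.66 with DHT and -5.83 and -0.90 with vehicle (-2.05 ± 1.55). The sign for Krt19 rested on vehicle array 2, without which it was 0.42. Neither Krt8 nor Krt19 was well above background on DHT array 2.

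The choroid plexus, the epithelium of the brain ventricles that makes cerebrospinal fluid, is known to carry simple keratins, and its markers were measured beside them. The mean level of 5 choroid plexus and ependyma genes was -3.23, -3.99 and -4.33 with DHT and -0.36 and 1.47 with vehicle. Ttr, which encodes transthyretin and is the defining gene of that epithelium, had -2.18, -2.55 and -3.20 with DHT, against 4.89 and 7.23 with vehicle. Of the 4 genes of the list that could be tested, all had DHT arrays below vehicle arrays (23.6% of all genes did), and none was called. Vehicle array 2, with the highest Ttr, also had the highest level of each of the 6 keratins tested, simple and basal, among the forebrain arrays used. The skeletal muscle list had means of -1.74, -2.77 and -2.84 with DHT and 0.30 and 0.28 with vehicle, and 7 of its 8 genes had DHT arrays below vehicle arrays, as did 4 of 5 endothelial genes; none of either list was called. The part of these markers in the keratin values was not tested.

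**Figure D5:**
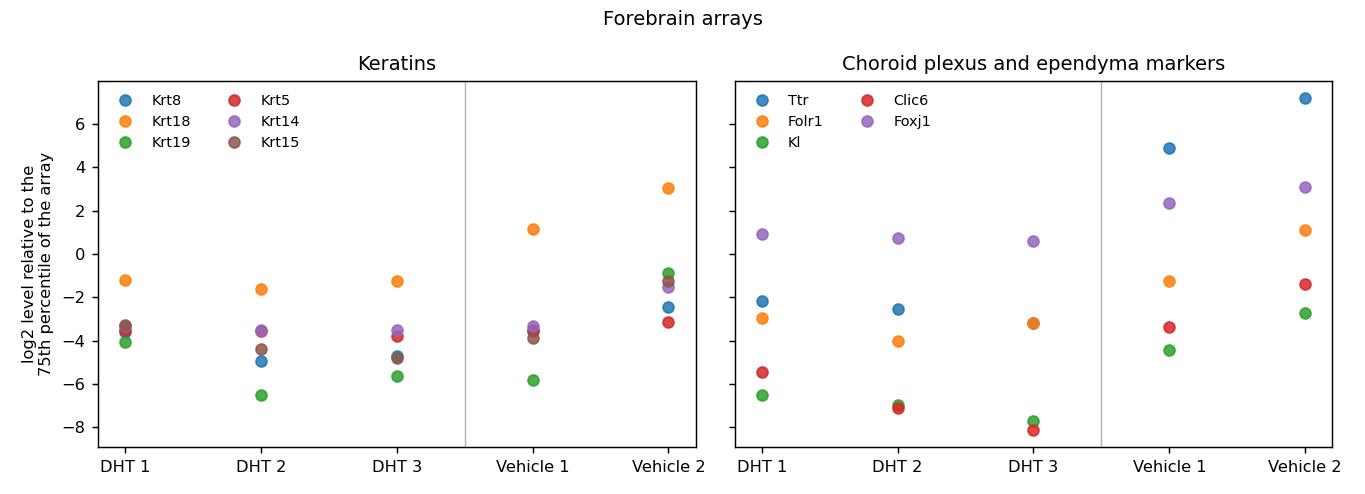
Levels on the 5 forebrain arrays used (horizontal axis, DHT left of vehicle), as log2 signal relative to the 75th percentile of the array (vertical axis), of 6 keratins (left panel) and 5 markers of choroid plexus and ependyma (right panel). Krt18 is above 0 on the 2 vehicle arrays and below 0 on the 3 DHT arrays, as is Ttr.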

How the data were processed

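RNA of 4 tissues was hybridised as 1 Cy3-labelled sample per array. The deposited values are linear spot intensity from Feature Extraction, version 10.5.1.1 in the file headers and 10.1 in the submitters' processing notes, which also name limma. The processed signal, background-subtracted by the scanner software, was used. Control spots and spots marked as outliers were left out, log2 was taken, and the 75th percentile of each array was subtracted. The number of arrays limits the precision.

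A gene entered a fit if 3 or more of its arrays had it well above background, and the probe with the highest mean signal stood for its gene. Names came from a GRCr8 table, matched by accession for 10813 probes (30199 had none), and array design positions were not used. A probe without a name was fitted and counted as a gene of its own. Each tissue was fitted alone, and all tissues together with slide as a random block (correlation 0.0706, from 2000 genes), with limma 3.58.1 in R 4.3.3, adjusting p by Benjamini-Hochberg (called under 0.05). Fold changes carry limma's standard errors. The p-values reflect only how far these samples spread, which may be partly technical. Without gMeanSignal, the normexp alternative (offset 50) used the median signal. Fits were tested on simulated data.

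The members, the 21 gene lists (136 of 230 entries on the array) and the tests were chosen with earlier results of these data known. Named genes were the keratins whatever the test, up to 4 called genes per list and direction in prostate and skin, and the 3 genes nearest to each keratin. Genes named without a call (Plec, Cdh1, Epcam, Itgb4, Tp63, Krt13, Ttr) were chosen after their values were seen. The main fits did not pair samples by replicate number. Same-numbered DHT and vehicle arrays of a tissue did not deviate together. Centring groups of 2 or 3 arrays constrains that check, so it cannot settle whether the numbers pair the samples. Alternatives were another background correction, quantile normalization, no filter, array weights, the mean of all probes, a replicate block, no slide block, 1 treatment alone and each array left out. A percentile that includes outlier spots and a stricter filter were added after seeing the data.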

Additional observations from a re-analysis of the deposited data

Results flagged for a closer look

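The forebrain vehicle array that failed the quality control of the submitters (replicate 3) entered no comparison, and 5 keratins had levels on it above all 5 forebrain arrays used. These were Krt8 at -0.16, Krt5 at -1.01, Krt14 at -0.34, Krt15 at 0.57 and Krt17 at 0.02. On the 3 DHT and 2 vehicle arrays used, Krt17 lay between -7.04 and -4.40 and Krt15 between -4.79 and -1.24. The array had 98.4% of probes well above background and an interquartile range of 1.96 log2 units, against 5.01 to 6.27 on the other forebrain arrays. The part of this narrow range in the 5 levels was not tested.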

How the results depend on the processing

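The number of keratins called in prostate (4 as reported) was 0 with normexp background correction, 0 without a filter on dim probes and 0 with a replicate block, and lay between 0 and 3 when each array was left out in turn; the cause was not tested. Over all genes of prostate, 2449 were called as reported, 664 with normexp, 655 without the filter, 48 with the replicate block, 4709 with array weights and 606 to 2925 with 1 array left out. With outlier spots in the percentile the split was 1704 higher and 816 lower, against 1292 and 1157 as reported. The block changed no other count of keratins called beyond 1 of 42 tissue differences (38 called, against 39); in forebrain it loses DHT array 3. In ovary the count was 0 to 2 and in forebrain 0 to 1 with 1 array left out, and it was 1 in forebrain with normexp. Over all ovary genes, 8168 were called without vehicle array 2 and 6 with quantile normalization; over all forebrain genes, 719 with normexp and 48 without vehicle array 1.

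Values that changed sign were all below the threshold. In prostate these were Krt5 (0.031) and Krt15 (0.044) with normexp, Krt18 with quantile normalization (-0.23) and with the mean of its probes (-0.063), and Krt15 with outlier spots included (0.035; -0.17 to 0.059 with 1 array left out). In skin they were Krt8 with normexp (0.14) and array weights (0.44), Krt5 with quantile normalization (-0.00078) and Krt17 with array weights (0.0049); leaving out 1 array gave -1.25 to 0.42 for Krt8 and -0.022 to 0.38 for Krt5. In ovary, without both narrow vehicle arrays, Krt8 had 0.87, Krt5 0.21, Krt19 0.22 and Krt18 0.10; leaving out 1 array gave -1.01 to 0.25 for Krt8, -0.93 to 0.15 for Krt18 and -0.73 to 0.012 for Krt19. In forebrain Krt19 ranged from -4.52 to 0.42. For the prostate minus skin difference, Krt19 had -0.90 with normexp and -0.0072 with quantile normalization, and with 1 replicate number left out Krt19 had -0.21 to 0.44, Krt8 -1.53 to 0.30 and Krt5 -0.80 to 0.013. For ovary minus forebrain levels, Krt17 had -0.076 with normexp, -1.11 on DHT arrays alone and -0.10 to 1.05 with 1 replicate number left out; Krt5 had 0.078 with array weights, 0.35 on vehicle arrays alone and -0.22 to 0.33 with 1 number left out. Signal over background limits Krt17 outside skin and the simple keratins in skin and forebrain.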
